A study of Mus musculus with 4 samples.

Results

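The YAP and SRF responsive genes described here are 10 mouse genes: Ankrd1, Ccn1, Ccn2, Crim1, Axl, Amotl2, Lats2, Fhl2, Srf and Vcl. They were selected by gene symbol with earlier results of these arrays in view, so their values are a description and were not tested. All 10 were found, among 12393 genes named on the platform, on 21 of its 22690 probe sets (a probe set is the group of short probes that measures 1 transcript). RNA came from primary mouse fibroblasts of e14.5 embryos. Cultures of 2 genotypes were used: wild type, and tri-CH1, whose cells have lost the CH1 domain from both p300 alleles and from 1 CBP allele. CH1 is a protein-binding domain of these coactivators. Subconfluent cultures of each genotype were kept at 37 °C and 5% CO2 for 6 h, under 21% oxygen (normoxia) or 0.1% oxygen (hypoxia), in fresh medium already brought to that oxygen level. That makes 4 groups with 1 array each, and the labels do not say how many embryos or cultures stand behind an array.

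YAP and TAZ are coactivators with no DNA-binding domain of their own. They reach their genes through TEAD transcription factors, and the Hippo kinases, which include Lats2, keep them in the cytoplasm in crowded or rounded cells. SRF is a transcription factor that binds the CArG box and works with MRTF coactivators, which enter the nucleus when free actin monomers run low. Both systems read the state of the actin skeleton, and in fibroblasts both drive genes of matrix, adhesion and contraction. Several of the genes here respond to both.

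Promoter sequences are shown for the 4 members called lower in tri-CH1 under hypoxia, and for Amotl2 and Vcl, which hold the same motifs and whose differences stayed within the spread between probe sets. RefSeq promoters (GRCm38.p6) were matched for 9 of the 10 genes. The stretch read was the 250 bases before each annotated start site. The motifs searched were the TEAD core, GGAATG on either strand (CATTCC when read on the other), and the CArG box, which reads alike on both strands. No TEAD core overlapped a CArG box. Capitals mark the matches, and each sequence runs 5′ to 3′ on the strand of its gene. The Ankrd1 stretch lies at chr19:36119845-36120094 (minus strand), that of Crim1 at chr17:78199998-78200247 (plus), that of Amotl2 at chr9:102717554-102717803 (plus), and that of Vcl at chr14:20929148-20929397 (plus). Fhl2 has annotated starts with stretches at chr1:43196762-43197011 and chr1:43163962-43164211 (both minus), and the Srf stretch lies at chr17:46556163-46556412 (minus).
Ankrd1: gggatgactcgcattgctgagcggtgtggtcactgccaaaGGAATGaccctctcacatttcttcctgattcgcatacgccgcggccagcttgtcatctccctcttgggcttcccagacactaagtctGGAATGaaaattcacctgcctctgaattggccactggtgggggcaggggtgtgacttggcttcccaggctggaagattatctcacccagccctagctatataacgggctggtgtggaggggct
Crim1: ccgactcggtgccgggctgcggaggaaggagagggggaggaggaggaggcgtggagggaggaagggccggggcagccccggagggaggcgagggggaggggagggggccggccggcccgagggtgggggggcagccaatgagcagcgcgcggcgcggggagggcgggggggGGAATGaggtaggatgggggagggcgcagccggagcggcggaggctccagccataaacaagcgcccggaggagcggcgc
Fhl2, start 1: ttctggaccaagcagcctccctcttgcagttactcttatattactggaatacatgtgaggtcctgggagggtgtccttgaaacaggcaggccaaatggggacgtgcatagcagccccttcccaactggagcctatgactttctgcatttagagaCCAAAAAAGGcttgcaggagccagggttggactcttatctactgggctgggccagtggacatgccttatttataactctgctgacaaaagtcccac
Fhl2, start 2: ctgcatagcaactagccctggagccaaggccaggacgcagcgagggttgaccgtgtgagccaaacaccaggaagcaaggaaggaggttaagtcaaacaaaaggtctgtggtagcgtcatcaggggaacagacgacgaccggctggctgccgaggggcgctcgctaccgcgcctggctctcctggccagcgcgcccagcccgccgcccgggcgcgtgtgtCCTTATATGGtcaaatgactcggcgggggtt
Srf: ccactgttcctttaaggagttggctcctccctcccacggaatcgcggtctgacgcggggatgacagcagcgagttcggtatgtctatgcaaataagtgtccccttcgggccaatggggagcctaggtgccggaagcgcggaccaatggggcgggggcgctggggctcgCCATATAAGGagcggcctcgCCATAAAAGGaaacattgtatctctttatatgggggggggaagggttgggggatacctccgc
Amotl2: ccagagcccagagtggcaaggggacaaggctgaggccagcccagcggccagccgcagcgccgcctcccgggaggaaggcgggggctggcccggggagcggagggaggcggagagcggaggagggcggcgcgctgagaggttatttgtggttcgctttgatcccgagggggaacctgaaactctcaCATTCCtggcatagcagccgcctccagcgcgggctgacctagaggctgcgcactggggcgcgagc
Vcl: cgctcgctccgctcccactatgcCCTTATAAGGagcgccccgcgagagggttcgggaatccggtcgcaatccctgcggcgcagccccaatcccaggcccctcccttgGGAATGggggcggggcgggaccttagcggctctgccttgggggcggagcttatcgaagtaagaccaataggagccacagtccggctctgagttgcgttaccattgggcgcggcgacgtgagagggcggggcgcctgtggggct

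A TEAD core was found for 6 of the 9 genes with a promoter: Ankrd1, Ccn1, Crim1, Axl, Amotl2 and Vcl. Of all 32851 promoters in the reference, 12.6% held 1 in the same stretch, or 14.4% when counted by gene. Ankrd1 was the member with a second copy, the matches beginning at positions -210 and -123 from the start site. A CArG box was found for Fhl2, Srf and Vcl, against 1.47% of all promoters and 1.62% of genes. Srf carried 2 boxes, beginning at positions -82 and -62. Each of the Fhl2 starts had 1 box, and Vcl held a box and a TEAD core. Neither motif was in the stretches of the Lats2 starts. A match describes these letters only and does not show that a factor binds there. Of the genes with no sequence shown, Ccn1 spans chr3:145646971-145649985, Ccn2 chr10:24595442-24598683, Axl chr7:25756500-25788924 and Lats2 chr14:57689662-57746212 in the same build.

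**Figure D1:**
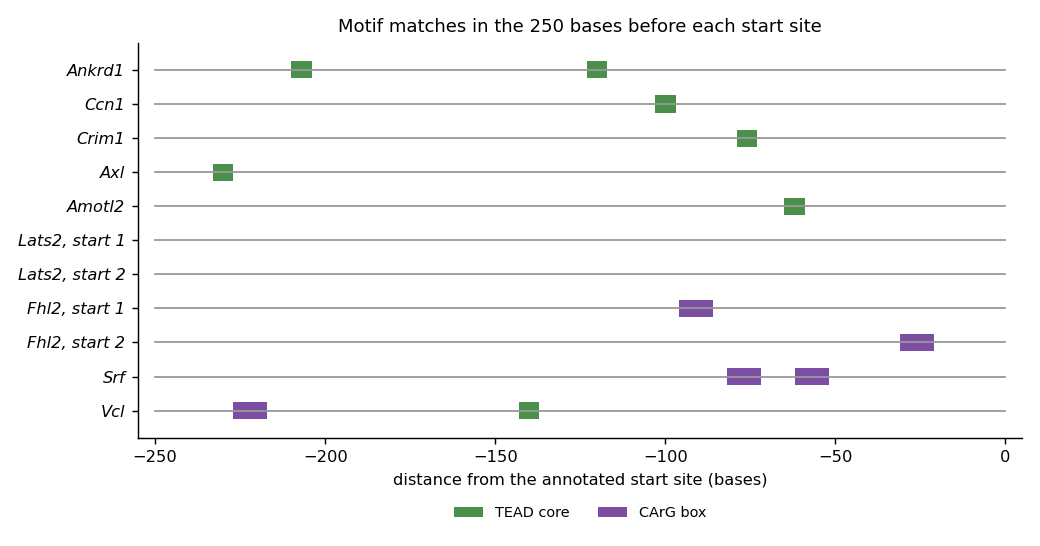
Matches to the TEAD core (green) and the CArG box (purple) in the 250 bases before each annotated start site, which lies at 0 on the horizontal axis; each line is 1 start site. A TEAD core appears for 6 genes and a CArG box for 3, and Vcl has both.

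Values are signal intensities on a linear scale, which the submitters scaled to a target of 500 on each array. A floor of 200 was set under all signals. A comparison of 2 arrays took in the genes that reached 500 on the brighter one, and a difference of at least 2-fold was called. Signals of different genes depend on their probes and are not compared here. With 1 array per group there is no replicate error and no test, and the number of arrays limits the precision. The only internal error is the spread between probe sets of the same gene. Over 1505 genes with 2 or more bright probe sets the SD of a gene's log2 change between its probe sets was 0.33 for genotype in normoxia and 0.31 in hypoxia. For oxygen it was 0.25 in wild-type cells and 0.29 in tri-CH1 cells. The scale factors ranged from 3.46 to 10.3. The wild-type normoxia array, which had the lowest, was of a different lot from the remaining 3, so lot cannot be told apart from genotype in normoxia, nor from oxygen in wild type. The hypoxia comparison of the genotypes used arrays of 1 lot.

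Tri-CH1 fibroblasts had less signal than wild type for most of these genes, and Ankrd1 differed most, by 6.82-fold in normoxia and 6.55-fold in hypoxia. By the 2-fold rule, Ankrd1, Ccn2, Crim1 and Fhl2 were lower in tri-CH1 in normoxia, and Ankrd1, Crim1, Fhl2 and Srf in hypoxia. That is 4 of 10 members at each oxygen level, beside 3.48% of 4333 genes called lower in normoxia and 3.31% of 4233 in hypoxia. The hypoxia count was 2 with a minimum signal of 1000, with an average taken over every probe set of the gene, and with plain _at probe sets only, each of which also left fewer members to count. The normoxia count ran from 3 to 6 over the settings tried. No member was called higher, beside 3.16% of genes in normoxia and 3.76% in hypoxia. The median log2 change of the members was -0.82 in normoxia and -0.56 in hypoxia, while that of all genes was 0.032 and 0.050. Because the genes were picked with these differences in view, the shares describe the choice. The split of all calls depended on scaling. It was 137 higher and 151 lower in normoxia as deposited, and 81 and 262 when each array was scaled to the same median.

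**Figure D2:**
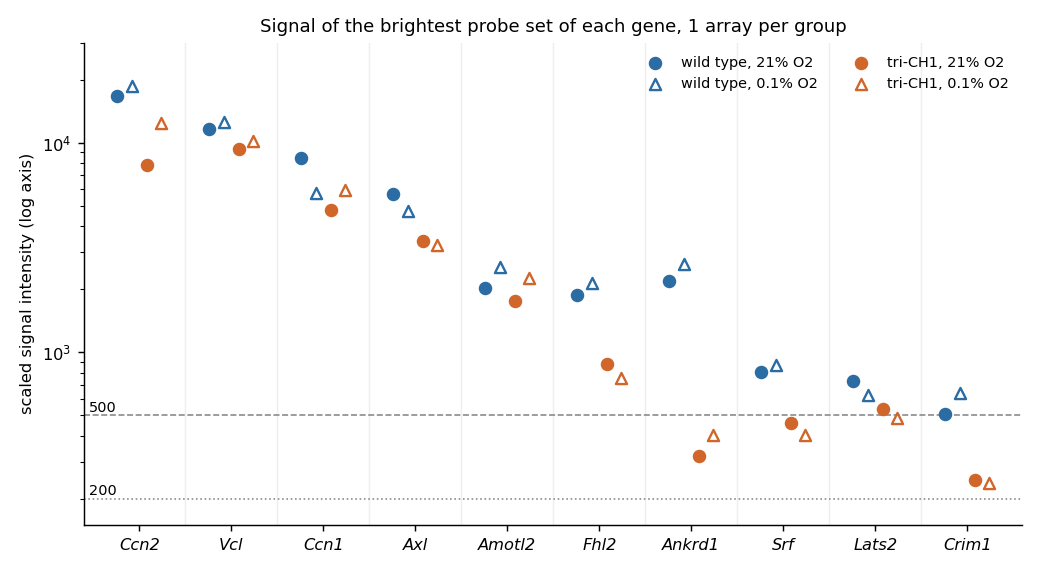
Scaled signal (log axis) of the brightest probe set of each gene on the 4 arrays, blue for wild type and orange for tri-CH1, filled circles for 21% and open triangles for 0.1% oxygen; the dashed and dotted lines mark signals of 500 and 200. Both tri-CH1 arrays lie below both wild-type arrays for 8 genes, with overlap for Ccn1 and Amotl2.

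On the brightest probe set of each gene, both tri-CH1 arrays lay below both wild-type arrays for 8 of the 10 genes. The same was true of 21.0% of the 4645 genes that reached 500 on any array. The second probe sets of Vcl and Srf and the next brightest of Lats2 did not separate the genotypes in this way. Nor did the dim second probe set of Axl. The second probe set of Crim1, also dim, did separate them, at signals from 104 to 251. In bulk RNA, fewer cells of a type and less RNA per cell cannot be told apart, and this holds for each difference below.

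Ankrd1 encodes a nuclear and sarcomeric ankyrin-repeat protein and is among the most used readouts of YAP activity. Its signal was 2177 in wild-type normoxia, 2627 in wild-type hypoxia, 319.5 in tri-CH1 normoxia and 401 in tri-CH1 hypoxia. The wild-type arrays were both high and the tri-CH1 arrays both low, with no overlap. The log2 change was -2.77 in normoxia and -2.71 in hypoxia, the third lowest of 4333 genes and the 6th lowest of 4233. The other probe set of Ankrd1 read 1962, 2069, 250 and 277 in the same order, with log2 changes of -2.97 and -2.90. For comparison, the background that the algorithm subtracts before computing signals corresponds to 343 and 393 after scaling on the tri-CH1 arrays, normoxia first. On the wild-type arrays it corresponds to 139 and 246. These values belong to whole arrays and so also apply to the dim signals of Crim1, Srf and Lats2. Ankrd1 is also a heart and muscle gene. Of 8 markers of striated muscle, none reached 500 on any array and 6 were under 200 on all, among them Myod1, Myog, Tnnt2 and Myh6. The skeletal muscle actin Acta1, which is also an SRF target, was not on that list and is named after its values were seen. It read 3494 and 3151 in wild type against 698 and 376 in tri-CH1, normoxia first, with log2 changes of -2.32 and -3.07. The part of muscle-type cells in the Ankrd1 difference was not tested.

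Ccn1 and Ccn2 encode secreted matricellular proteins of 1 family, which bind integrins and are classic targets of both YAP and SRF. The Ccn2 signal was 16670 in wild-type normoxia, 18728 in wild-type hypoxia, 7785 in tri-CH1 normoxia and 12394 in tri-CH1 hypoxia. Both tri-CH1 arrays were below the wild-type ones, and Ccn2 was 2.14-fold lower there in normoxia, while its log2 change in hypoxia was -0.60. Ccn1 read 8451 and 5752 in wild type, normoxia first, against 4777 and 5931 in tri-CH1. The genotypes overlapped, since the hypoxia arrays nearly coincided. Its log2 change with genotype was -0.82 in normoxia and 0.044 in hypoxia. The other Ccn1 probe set read 6358, 5042, 3510 and 3974 (wild type first, normoxia before hypoxia), with log2 changes of -0.86 and -0.34. It places both tri-CH1 arrays below the wild-type ones. The brighter Ccn1 probe set is of the x type, which marks probes that can also match other transcripts.

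Axl and Crim1 encode membrane proteins. Axl, a receptor tyrosine kinase for Gas6, read 5702 and 4706 in wild type against 3403 and 3256 in tri-CH1, normoxia first. Its log2 changes were -0.74 and -0.53, with no overlap between genotypes. A second probe set of Axl lay between 163 and 213 on the 4 arrays. Crim1, which tethers BMP growth factors at the cell surface, read 505 and 637 in wild type against 245 and 238 in tri-CH1. Tri-CH1 was thus lower by 2.06-fold in normoxia and 2.67-fold in hypoxia. These tri-CH1 signals were close to the floor, and with a floor of 400 the log2 changes were -0.34 and -0.67. The second Crim1 probe set was dim, at 251 and 205 in wild type against 104 and 116 in tri-CH1. Its log2 changes of -0.33 and -0.034 were limited by the floor, to which both tri-CH1 signals were raised. Without the floor they were -1.27 and -0.82, between signals too dim to show much either way.

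Amotl2 and Lats2 are part of the feedback that YAP places on itself, Amotl2 as a junction protein that binds YAP and Lats2 as the kinase that phosphorylates it. Amotl2 read 2032 and 2540 in wild type against 1761 and 2249 in tri-CH1, normoxia first. The genotypes overlapped, and the log2 changes of -0.21 and -0.18 were smaller than the spread between probe sets. Lats2 read 728 and 628 in wild type against 534 and 488 in tri-CH1, giving log2 changes of -0.45 and -0.36. Its tri-CH1 arrays were the lower ones without overlap, by little more than that spread. Lats2 had 6 probe sets, and the brightest, used here, is of the x type. The next brightest gave log2 changes of 0.31 in normoxia and -0.31 in hypoxia, another gave -0.058 and -0.27, and 3 stayed under 200 on all arrays. A further probe set carries the symbols of Lats2 and Xpo4 and was not used.

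Srf, Fhl2 and Vcl belong to the SRF side. Fhl2, a LIM-domain cofactor that SRF induces and that in turn binds SRF, read 1873 and 2138 in wild type against 877 and 750 in tri-CH1. Without overlap, tri-CH1 was lower by 2.14-fold in normoxia and by 2.85-fold in hypoxia. Srf itself, which activates its own promoter, read 809 and 873 in wild type against 460 and 402 in tri-CH1. Its log2 change was -0.82 in normoxia, and in hypoxia it was 2.17-fold lower. The second Srf probe set did not show this. It read 437 and 373 in wild type against 468 and 433 in tri-CH1, giving log2 changes of 0.099 and 0.21. The lower Srf signal thus rests on 1 of 2 probe sets, and with their mean the hypoxia change was -0.45. The probe set that showed it is not a plain _at probe set, while the second is. Vcl, the focal adhesion protein vinculin, read 11572 and 12551 in wild type against 9345 and 10215 in tri-CH1, giving log2 changes of -0.31 and -0.30. Its other probe set gave -0.067 and -0.091, so the Vcl difference was within the spread between probe sets.

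**Figure D3:**
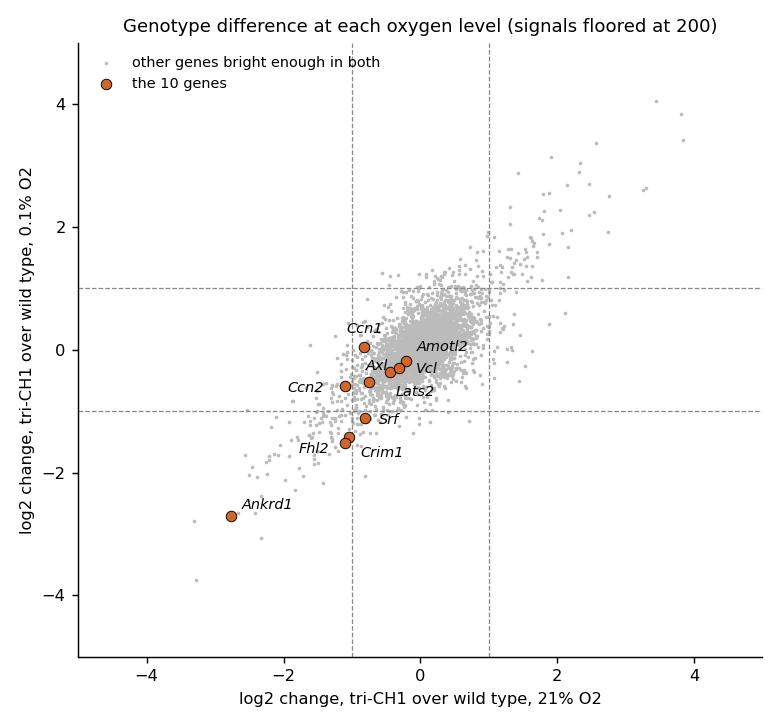
Log2 change of tri-CH1 over wild type at 21% oxygen (horizontal) and at 0.1% oxygen (vertical) for genes bright enough in both comparisons, with the 10 genes in orange and dashed lines at 2-fold. Ankrd1 lies at -2.77 and -2.71, Crim1 and Fhl2 are past 2-fold on both axes, Ccn2 and Srf on 1, and Ccn1 is near 0 on the vertical axis.

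Members with the same promoter motif differed by different amounts. Ankrd1 and Crim1, with a TEAD core, were called lower at both oxygen levels, whereas Amotl2, also with 1, had log2 changes of -0.21 and -0.18. Ccn1, with -0.82 and 0.044, and Axl, with -0.74 and -0.53, hold a TEAD core too and were not called. On the brightest probe sets, Fhl2 and Srf, with CArG boxes, differed more than Vcl, which holds both motifs. The second Srf probe set gave 0.099 and 0.21. This compares letters with 1 array per group and no test was run.

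No member was called higher or lower with hypoxia in either genotype. In wild type all 10 counted, beside 3.05% of 4125 genes called higher and 1.19% called lower. In tri-CH1 only 7 counted, since Ankrd1, Crim1 and Srf were under 500 on both arrays, beside 3.19% of 4358 genes called higher and 0.987% lower. Median scaling turned the wild-type split of all calls from 126 higher and 49 lower into 116 and 72. In wild type the members had a median of 0.14 (log2) against -0.057 for all genes, and in tri-CH1 0.13 against -0.039.

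In wild type the log2 changes with hypoxia ran from -0.55 for Ccn1 to 0.34 for Crim1, and in tri-CH1 from -0.23 for Fhl2 to 0.67 for Ccn2. Amotl2 had similar values in the genotypes, 0.32 in wild type and 0.35 in tri-CH1, as did Vcl with 0.12 and 0.13. Ankrd1 had 0.27 in wild type and 0.33 between the dim tri-CH1 arrays. The CCN genes were the members whose values differed most between genotypes. For Ccn1 the log2 change of -0.55 in wild-type cells stood against 0.31 in tri-CH1 cells, a difference of 0.87, and its second probe set gave -0.33 and 0.18. Ccn2 had 0.17 and 0.67, a difference of 0.50. At the other end, Fhl2 had 0.19 and -0.23, Crim1 0.34 and -0.042, and Srf 0.11 and -0.19. The tri-CH1 values of Crim1 and Srf were between arrays both under 500. Their second probe sets, also under 500, gave differences of 0.29 for Crim1 and 0.11 for Srf, of the opposite sign. On that Crim1 probe set both tri-CH1 signals were raised to the floor. The median difference over the 10 genes was 0.045, and over all 4645 genes it was 0.028. These hypoxia changes share their arrays with the genotype changes above.

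**Figure D4:**
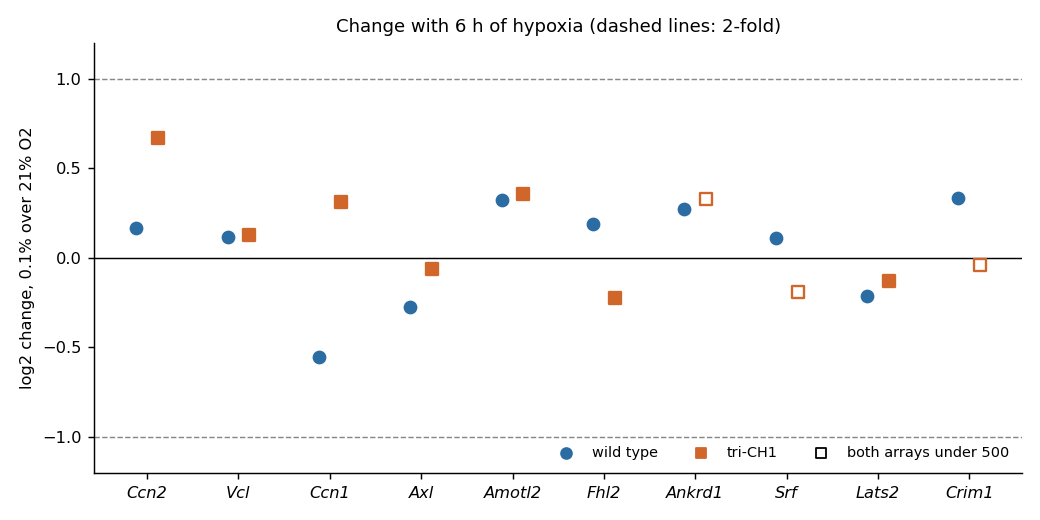
Log2 change from 21% to 0.1% oxygen in wild type (blue circles) and tri-CH1 (orange squares) for each gene; open symbols mark pairs of arrays that are both under 500, and dashed lines mark 2-fold. No point reaches 2-fold, and Ccn1 and Ccn2 show the widest gaps between genotypes, with Ccn1 at -0.55 and 0.31.

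Other genes of the pathways were taken from 4 lists. The 20 other YAP and TAZ targets had 16 genes named on the array and 10 that counted in normoxia. Of these, 2 were lower in tri-CH1 and none higher, and in hypoxia the same was true of 2 of 9, beside 3.48% and 3.31% of all genes called lower. Both times they were F3, the coagulation starter tissue factor, and Cdc42ep3, an effector of the GTPase Cdc42. F3 read 1777 and 3426 in wild type against 602 and 941 in tri-CH1, normoxia first, and was 2.95-fold and 3.64-fold lower in tri-CH1. Cdc42ep3 read 1844 and 2847 in wild type against 774 and 951 in tri-CH1, and was 2.38-fold and 2.99-fold lower. The tri-CH1 arrays were the low ones for both genes. The list as a whole did not lie low, with a median log2 change of 0.067 in normoxia and 0.27 in hypoxia. The secreted matrix protein Ccdc80, named after its values were seen, had changes of 0.85 and 0.94, with both tri-CH1 arrays above wild type.

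Among 24 Hippo components, 18 were named on the array. None of the 8 that counted in normoxia or the 9 in hypoxia was past 2-fold with genotype, and the median log2 changes were -0.35 and -0.18. Of all genes, 3.16% were called higher and 3.48% lower in normoxia, and 3.76% and 3.31% in hypoxia. Yap1 read 3804 and 3051 in wild type against 2698 and 2642 in tri-CH1, normoxia first, with log2 changes of -0.50 and -0.21. Wwtr1, which encodes TAZ, had -0.39 and -0.18. Tead1 lay between 183 and 240, Lats1 between 273 and 370 and the upstream regulator Nf2 between 145 and 330, all under 500 on every array. Stk3 had no probe set named to it alone. With hypoxia, 1 of 7 components that counted in wild type and 1 of 9 in tri-CH1 were called higher, beside 3.05% and 3.19% of all genes. They were Frmd6, a FERM-domain activator of Hippo signalling, 2.07-fold in wild type, and the kinase scaffold Sav1, 2.42-fold in tri-CH1. These were named after their values were seen. Their log2 changes in the other genotype were 0.62 and 0.60.

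The other SRF and MRTF targets, many of them genes of the contractile apparatus, numbered 22, with 20 named on the array and 19 that counted. In normoxia 3 were lower in tri-CH1, none higher, beside 3.48% of all genes called lower. A change below 0 was found for 14 of 19, beside 46.5% of all genes, and the median log2 change was -0.49. In hypoxia 1 was lower, beside 3.31% of all genes, and 15 of 19 were below 0, beside 44.9%, with a median of -0.24. Actg2, the smooth muscle gamma actin, read 5039 and 3998 in wild type against 890 and 973 in tri-CH1, and was 5.66-fold and 4.11-fold lower in tri-CH1. Cnn1, the actin-binding calponin of smooth muscle, was 2.28-fold lower in normoxia, with a log2 change of -0.76 in hypoxia. Pdlim7, a PDZ and LIM protein of actin fibres, was 2.23-fold lower in normoxia and had -0.34 in hypoxia. The nonmuscle actins Actb and Actg1, named after their values were seen, had log2 changes of 0.38 and 0.28 in normoxia.

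Of 19 SRF cofactors and actin regulators, 17 were named on the array. None of the 10 that counted in normoxia or the 11 in hypoxia was past 2-fold with genotype, and the medians were -0.19 and -0.086. The shares of all genes were 3.16% higher and 3.48% lower in normoxia, and 3.76% and 3.31% in hypoxia. Mrtfa read 486 and 419 in wild type against 317 and 577 in tri-CH1, normoxia first. Its genotype change in hypoxia was 0.46, and the pair in normoxia was under 500. Mrtfb stayed between 103 and 286. The lists were picked with earlier results of these arrays known, and nothing particular to a list follows from its median.

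**Figure D5:**
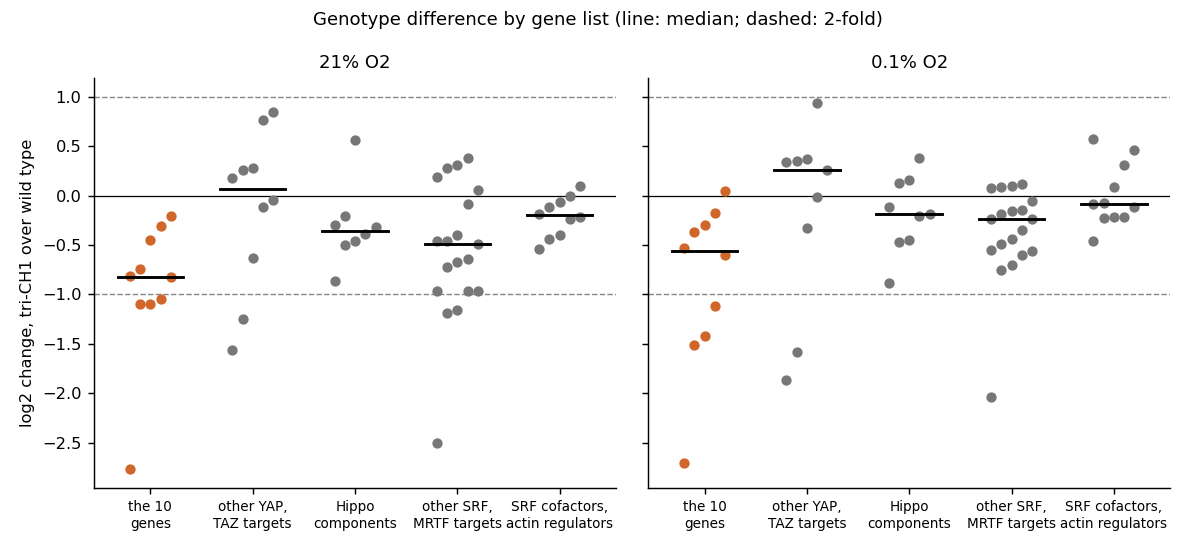
Log2 change of tri-CH1 over wild type at 21% (left) and 0.1% oxygen (right), 1 point per gene that counted, for the 10 genes (orange) and the 4 pathway lists (grey), with the median as a black line and 2-fold as dashed lines. The medians in normoxia are -0.82 for the 10 genes, 0.067 for the other YAP and TAZ targets, -0.35 for Hippo components, -0.49 for the other SRF and MRTF targets and -0.19 for SRF cofactors and actin regulators.

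The genes with the pattern most like the members' median were sought among the 4645 genes that reached 500 on any array, by Euclidean distance over the 4 arrays between centred log2 signals. Outside the lists, the closest 5 were Mob4 at a distance of 0.085, Tor1aip2 at 0.091, Slc25a17 at 0.093, S1pr1 at 0.10 and Eif2s3x at 0.10. The members themselves lay farther from their median, from 0.22 for Axl to 2.01 for Ankrd1. Mob4 read 1563 and 1541 in wild type against 933 and 966 in tri-CH1, and S1pr1, a receptor for sphingosine 1-phosphate, 590 and 542 against 315 and 342. On these genes the genotypes differed and the oxygen levels nearly coincided.

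All 12 fibroblast markers reached 500 on at least 1 array, and their summed signal was 133654 to 139414 on the wild-type arrays and 153642 to 157926 on the tri-CH1 arrays. None of 5 endothelial markers reached 500, and 4 were under 200 throughout. Csf1r was the 1 of 5 macrophage and blood markers at 500, Nes the 1 of 4 neural markers, and Krt8 and Krt18 the 2 of 6 epithelial markers. Smooth muscle markers had less summed signal in tri-CH1, as the members did. Of these, 3 of 4 (Acta2, Tagln and Cnn1) reached 500 on every array, and the list's summed signal was 61707 and 64105 in wild type against 43884 and 44140 in tri-CH1. These 3 are also on the list of SRF targets. Within the fibroblast list, Thy1 read 13148 and 12389 in wild type against 3837 and 3274 in tri-CH1, while Lum read 355 and 419 against 1562 and 2684. The part of a differing mix of cells in the members' differences was not tested.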

How the data were processed

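Each of the 4 arrays measured total RNA of 1 group. The authors used the Affymetrix statistical algorithm, per the labels, to obtain an intensity for every probe set, and scaled each array to a target of 500. The deposited intensity values are linear. The software version is not given in the sources used here. Probe sets took their genes from the platform annotation: 20380 of 22690 had 1 symbol, 20351 of which were matched to RefSeq by gene number. Only probe sets with 1 symbol entered, and the brightest on average over the 4 arrays stood for its gene. Fold changes were computed on log2 values after the floor of 200, without tests. Genes were named by rule: all members, up to 6 list genes per comparison past 2-fold with genotype, 8 pathway genes whatever their values, and the 5 genes closest in pattern. Members and lists were chosen with earlier results of these data known. Alternatives were floors of 100 and 400 and none, minimum signals of 250 and 1000, quantile, cyclic loess and median scaling, means over probe sets, and plain _at probe sets. The code for the 2-fold rule was run on simulated data, as a check of the code only. The reliability of the calls on these arrays was not tested. Python 3.11.15, numpy 2.4.6, pandas 2.3.3, matplotlib 3.10.9, R 4.3.3 and limma 3.58.1 were used.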

Additional observations from a re-analysis of the deposited data

Results flagged for a closer look

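On its brighter probe set, of the x type, Ccn1 had a hypoxia change of opposite sign in the genotypes, each larger than the SD between probe sets, which was 0.25 for wild-type and 0.29 for tri-CH1 arrays. The change was -0.55 (log2) in wild-type cells and 0.31 in tri-CH1 cells, a difference of 0.87. The second Ccn1 probe set gave -0.33 and 0.18, a difference of 0.51. The tri-CH1 value lay within the SD on that probe set, with the mean over probe sets (0.25) and after quantile normalization (0.26). The difference rests on 1 array per group and was not tested.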

How the results depend on the processing

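Single member changes were recomputed under 11 alternatives, 10 planned and 1 added after seeing the data (averaging only the probe sets at 500 or more on some array). Of 369 such values, 364 kept their side of 2-fold, 3 lost it and 2 gained it, and no call changed direction. Part of this was fixed in advance. No signal of a member's brightest probe set lay under the reported floor, so a lower floor or none returned the same values. A changed minimum signal only decided which values counted. The values kept under these settings therefore say nothing about stability. A member that no longer counted under an alternative gave no value, which left out further calls of Crim1, Fhl2 and Srf. Crim1 lost both calls with a floor of 400. Srf in hypoxia had -0.45 with the mean over all its probe sets. Ccn1 and Srf passed 2-fold in normoxia, at -1.04 each, when arrays were scaled to the same median. That scaling put the median of all genes at -0.21 in the normoxia comparison, and relative to it the members' median was -0.83, against -0.85 as deposited. It put the median difference of the hypoxia changes at 0.18 for all genes and 0.19 for the members. The count of members called lower in hypoxia went from 4 to 2 with a minimum signal of 1000, which Crim1, Lats2 and Srf do not reach. It was also 2 with the mean over all probe sets and with plain _at probe sets only, which leaves 5 members. In normoxia the count was 3 with these settings and with a floor of 400, and 6 when arrays were scaled to the same median. Over the alternatives the members' median genotype change ran from -1.04 to -0.60 in normoxia and from -0.64 to -0.46 in hypoxia. Their median hypoxia change ran from 0.067 to 0.17 in wild type, and in tri-CH1 from 0.11 to 0.31, against 0.13 as reported. No array could be left out, since each group has 1. No paired analysis was possible because each group has 1 array without replicate numbers. Low signals limit Ankrd1 and Crim1, whose tri-CH1 signals were between 238 and 401, and Srf, with 460 and 402.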

Other observations

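Relatives and partners of the members, listed after the members' values were seen, differed with genotype in both directions. Within the CCN family, Ccn5 was higher in tri-CH1, at 2803 and 1918 against 483 and 407 in wild type (normoxia first), which is 5.81-fold and 4.71-fold. Ccn4 was lower in tri-CH1, by 3.63-fold in normoxia, at 1422 against 5162, with a log2 change of -0.83 in hypoxia. Ccn3 had log2 changes of 0.17 and 0.14. Ccn4 and Ccn5 thus differed in opposite directions. With oxygen, Ccn4 gave opposite signs as Ccn1 did, -0.77 in wild-type cells and 0.25 in tri-CH1 cells (log2). The tri-CH1 value was within the SD between probe sets of 0.29. Ccn3, with -0.36 and -0.40, and Ccn5, with -0.25 and -0.55, had the same sign in both genotypes.

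The BMP ligand Bmp4 was under 200 on both wild-type arrays, at 138 and 141, and read 826 and 967 in tri-CH1, so it was at least 4.13-fold higher in normoxia and at least 4.83-fold in hypoxia, while Crim1 was lower. Of the receptors related to Axl, Tyro3 and Mertk were under 200 on every array. Their ligand Gas6 had log2 changes of 0.21 and 0.28. Fhl1, a relative of Fhl2, had -0.54 and -0.21, and the vinculin partners Tln1 and Ctnna1 had -0.64 and -0.22 in normoxia. None of these differences has a replicate.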
